A study of Mus musculus with 8 samples.

Results

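The 10 genes described here, Gata4, Gata6, Nkx2-5, Tbx5, Tbx20, Mef2a, Mef2c, Hand2, Srf and Myocd, encode the core transcription factors of the heart. They were chosen by name, and all 10 of them were found among the 39056 genes counted and passed the filter on low counts. RNA-seq was done on the hearts of 4 HVCN1 null mice (labelled Hv1 null) and 4 wild-type (WT) mice, with 1 library per heart. All 8 mice were male and 3 months old. The WT mice were of the C57BL/6 background, the null mice carry a deletion of the voltage-gated proton channel gene Hvcn1, and how the deleted allele was made is not given in the sources used here. The hearts are called HVCN1 null hearts 1 to 4 and WT hearts 5 to 8 after their labels. Total counts ran from 25851255 to 38874640 per heart. Values are given as CPM (counts scaled to a common library size by TMM, per 1e6). Every log2 fold change has WT as its base and is positive where the null genotype had more.

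These factors work as a set that binds shared enhancers. GATA factors (zinc fingers), NKX2-5 (a homeodomain protein), T-box factors, MEF2 factors and SRF (both MADS-box proteins) and HAND2 (a basic helix-loop-helix protein) form the heart in the embryo and keep contractile and conduction genes active in the adult. Myocardin, from Myocd, binds no DNA by itself and acts as a coactivator of SRF, which recognises the CArG box of muscle and immediate early genes. In adult heart some of these genes are also used outside myocytes, for example Hand2 and Gata6 in fibroblasts and Gata6 and Myocd in smooth muscle.

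Of the 10 factors 1 was a differentially expressed gene (DEG), Hand2, which rose in HVCN1 null hearts to 168% of the WT mean. The criterion, an adjusted p under 0.05 in the quasi-likelihood test of edgeR, was met by 1.14% of the 14796 tested genes, 0.743% as higher and 0.399% as lower. Srf was the other factor whose 4 HVCN1 null values all lay above the 4 WT values, by a smaller amount and without passing the adjusted test. Such separation upward was found for 3.60% of all tested genes, and separation in either direction for 7.06%. Gata6 and Nkx2-5 had higher means in HVCN1 null hearts with overlap of the groups, and Gata4, Tbx20, Mef2a, Mef2c and Myocd differed by less than the spread between hearts. Tbx5 varied most between hearts of the same genotype and followed the level of atrial genes. The median log2 fold change of the 10 factors was 0.10, against -0.01 over all tested genes.

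Promoter sequence of 6 of the factors (Nkx2-5, Tbx20, Mef2a, Mef2c, Hand2 and Srf) was held in the RefSeq table for GRCm38.p6. The 250 bases before the start site are shown for Hand2 and Srf, the factors whose groups did not overlap, and for Actc1. Actc1, a heart muscle gene with a CArG box, was lower in every HVCN1 null heart than in any WT heart. It was not a DEG in the main test (edgeR quasi-likelihood adjusted p = 0.105) and was picked for display after its values were seen. For Srf and Actc1 the capitals mark CArG boxes (2 C, 6 A or T, 2 G, read on both strands), and for Hand2 they mark GATAA, the core of GATA factor sites, on either strand and CATCTG, an E-box. The regions are chr8:57320733-57320982 on the plus strand for Hand2, chr17:46556163-46556412 on the minus strand for Srf and chr2:114052876-114053125 on the minus strand for Actc1.
Hand2: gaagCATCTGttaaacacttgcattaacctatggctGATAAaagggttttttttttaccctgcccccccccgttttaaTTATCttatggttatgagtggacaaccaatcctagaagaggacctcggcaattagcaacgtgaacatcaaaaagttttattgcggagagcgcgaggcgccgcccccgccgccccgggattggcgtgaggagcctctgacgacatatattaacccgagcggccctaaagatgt
Srf: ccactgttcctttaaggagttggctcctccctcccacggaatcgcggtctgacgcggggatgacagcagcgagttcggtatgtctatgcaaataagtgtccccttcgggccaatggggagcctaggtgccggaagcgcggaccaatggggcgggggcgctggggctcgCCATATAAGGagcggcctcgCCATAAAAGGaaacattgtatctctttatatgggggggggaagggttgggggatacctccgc
Actc1: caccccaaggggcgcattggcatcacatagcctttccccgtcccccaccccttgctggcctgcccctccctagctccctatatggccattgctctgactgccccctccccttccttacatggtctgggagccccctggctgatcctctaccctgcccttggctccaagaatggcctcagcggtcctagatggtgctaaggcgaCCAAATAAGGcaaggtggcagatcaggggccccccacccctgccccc
The Srf promoter holds 2 CArG boxes, CCATATAAGG and CCATAAAAGG, beginning 82 and 62 bases before the start. At least 1 CArG box was found in 1.47% of 32851 promoter windows of this length, and 2 or more in 6 of them (0.0183%). Actc1 holds 1 of this strict form (6 A or T between 2 C and 2 G), CCAAATAAGG, 47 bases before the start. Its window also holds ccctatatgg, ccttacatgg and ccaagaatgg, each with 1 C or G among the 6 middle letters. The Hand2 window holds GATAA 2 times, on opposite strands, and CATCTG once, and no CArG box. GATAA was present at least once in 22.6% and 2 or more times in 4.28% of the windows, and CATCTG at least once in 14.4%. No CArG box of the strict form was found in the windows of Nkx2-5, Tbx20, Mef2a or Mef2c. Acta2, the smooth muscle actin gene, had none of that form either. Its window does hold ccctatatgg and ccttgtttgg, each with 1 C or G among the 6 middle letters. Such looser forms were not counted in any window. A match of letters is a description of the window and not a measured binding site.

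Before the comparison, the genotype and the makeup of the hearts were checked. Hvcn1 had 16 counts in all in the HVCN1 null hearts against 318 in the WT hearts, and was lower in each HVCN1 null heart than in any WT heart. Pan-cardiomyocyte markers were high in every heart (Myh6, Tnnt2, Tnni3, Actn2 and Ryr2 together, 37370 to 48540 CPM). By their sum, the 6 atrial myocyte markers (Sln, Myl7, Myl4, Nppa, Bmp10 and Dkk3) set the hearts apart within both genotypes. Their summed level was 320 CPM in HVCN1 null heart 1, 4595 in heart 2, 3678 in heart 3 and 323 in heart 4, and 3260, 126, 8467 and 86.8 CPM in WT hearts 5 to 8. The 5 atrial markers that were tested had negative log2 fold changes (median -0.44) and no DEG, and the median turned to 2.08 with voom. Myl7, the atrial myosin light chain, had 1185 CPM in WT heart 7 and 0.169 CPM in WT heart 8. Bmp10 did not follow the sum in every heart. It had 418 CPM in HVCN1 null heart 2 and 574 CPM in WT heart 7, but 0.038 CPM in HVCN1 null heart 3 and 0.152 CPM in WT heart 5. Of the other marker lists, macrophage (6 of 6 tested genes) and erythroid markers (5 of 5) were all lower in mean in HVCN1 null hearts, with medians of -0.31 and -0.96 on the log2 scale and no DEG. The summed level of fibroblast markers ran from 868 to 1394 CPM in HVCN1 null and from 923 to 1509 CPM in WT hearts. Smooth muscle and pericyte markers summed to 1253 to 1943 and 1178 to 1456 CPM, and Acta2 was the only DEG of the 55 marker genes tested. Endothelial, ventricular, conduction and mesothelial markers held no DEG, with median log2 fold changes of -0.15, 0.04, 0.31 and -0.45, and the conduction median turned to -0.09 without a filter and to -0.07 with the stricter CPM filter. DESeq2 and the exact and likelihood ratio tests of edgeR called Acta2 and no other marker, and limma's voom called no marker.

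Hand2 (ENSMUSG00000038193, chromosome 8, 57320983 to 57324633 in GRCm38, plus strand) encodes a basic helix-loop-helix factor of the right ventricle, outflow tract and cardiac neural crest. It had 71.7, 103, 99.3 and 79.3 CPM in HVCN1 null hearts 1 to 4 and 58.6, 50.1, 44.5 and 57.7 CPM in WT hearts 5 to 8. Every HVCN1 null heart lay above every WT heart. The group means were 88.4 ± 15.3 and 52.7 ± 6.70 CPM (SD, n = 4 each), from 1621 to 3862 counts per heart. This is a log2 fold change of 0.75 with a 95% interval from 0.44 to 1.06 (standard error 0.14, edgeR quasi-likelihood adjusted p = 0.0358). Permuting the genotypes over the hearts gave an exact two-sided p of 0.0286 for mean CPM, the smallest that 70 assignments of 8 hearts give. After adjustment over all tested genes this permutation p was 0.405. Hvcn1, the deleted gene, had the same values. Every gene with the smallest p shares this adjusted value, so the adjusted permutation test could call no gene. Hand2 remained a DEG in each of 9 other fits, with other scalings, filters and tests and with an atrial score as a covariate. The call was lost without HVCN1 null heart 2 or 3 or any 1 of the WT hearts, with edgeR quasi-likelihood adjusted p values of 0.0797, 0.102, 0.0615, 0.136, 0.0705 and 0.0694 for hearts 2, 3, 5, 6, 7 and 8. The log2 fold change stayed between 0.66 and 0.83 with any 1 heart left out. As the libraries are bulk RNA, a change in the number of cells of a type and a change in RNA per cell cannot be told apart. This holds here and for every other gene below.

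Hand2 has a neighbour on the opposite strand, the long non-coding RNA gene Hand2os1 (ENSMUSG00000100510, chromosome 8, 57281117 to 57324233). In RefSeq their start sites lie 124 bases apart and are divergent, and in the GENCODE annotation exons of the 2 genes share 461 bases. Hand2os1 had 29.0, 35.8, 36.4 and 30.9 CPM in HVCN1 null hearts and 44.7, 30.8, 27.8 and 35.2 CPM in WT hearts. The groups overlapped, with a log2 fold change of -0.07 and a 95% interval from -0.39 to 0.25 (edgeR quasi-likelihood adjusted p = 0.940). The direction turned to 0.09 without WT heart 5. The log2 ratio of Hand2 to Hand2os1, a comparison chosen after their values were seen, was 1.41 ± 0.0988 in HVCN1 null and 0.620 ± 0.154 in WT hearts (n = 4 and 4, SD), 0.79 apart and without overlap (two-sided exact permutation p = 0.0286). The libraries were strand-selected, but the strand setting of the counting is not given in the sources used here, so reads over the shared bases could belong to either gene.

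**Figure D1:**
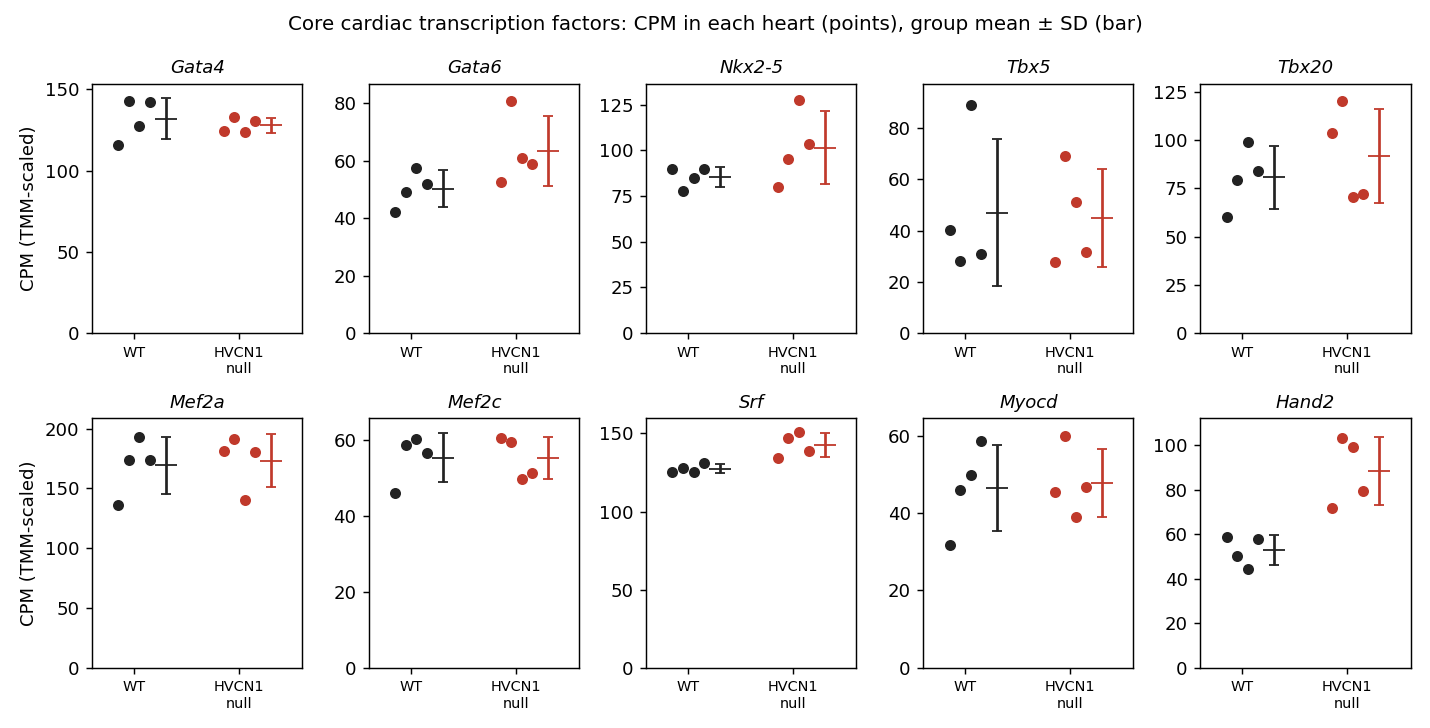
CPM of each of the 10 factors (vertical axes, TMM-scaled, starting at 0) in the 4 WT hearts (black) and the 4 HVCN1 null hearts (red), with 1 point per heart and the group mean ± SD beside the points. Hand2 (44.5 to 58.6 CPM in WT, 71.7 to 103 CPM in HVCN1 null) and Srf (125 to 131 and 134 to 151 CPM) are the 2 panels in which the groups do not overlap.

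Srf (ENSMUSG00000015605, chromosome 17, 46548329 to 46556175, minus strand) encodes serum response factor, which drives both cytoskeletal and growth-responsive genes. It had 134, 147, 151 and 139 CPM in HVCN1 null hearts and 126, 128, 125 and 131 CPM in WT hearts. The WT hearts lay close together, and all HVCN1 null hearts were above them. Its coefficient of variation in WT hearts was 2.19%, the lowest of the 10 factors, and in HVCN1 null hearts 5.37%. The means of 142.5 ± 7.65 and 127 ± 2.80 CPM gave a log2 fold change of 0.16, with a 95% interval from -0.02 to 0.34 (edgeR quasi-likelihood adjusted p = 0.515). For the difference in mean CPM the two-sided exact permutation p was 0.0286, and 0.405 adjusted over all tested genes, each the lowest that this test can give. No alternative called Srf, and its log2 fold change lay between 0.13 and 0.20 over 17 alternatives. Among HVCN1 null hearts, heart 2 was highest for Hand2 and heart 3 for Srf, and heart 1 was lowest for both.

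Myocd (ENSMUSG00000020542, chromosome 11, 65176561 to 65269989, minus strand), the coactivator partner of SRF, did not separate the genotypes. It had 45.6, 60.0, 38.9 and 46.8 CPM in HVCN1 null hearts and 31.8, 46.0, 49.8 and 58.5 CPM in WT hearts. Both groups spread over nearly the same range. The log2 fold change was 0.04, with a 95% interval from -0.36 to 0.45 (edgeR quasi-likelihood adjusted p = 0.979), and the sign turned without HVCN1 null heart 2 or WT heart 5.

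Genes known as targets of SRF and myocardin in smooth muscle and the cytoskeleton were 12, all tested. Acta2, smooth muscle actin, was the only DEG among them. It had 357, 150, 336 and 201 CPM in HVCN1 null hearts and 108, 107, 125 and 79.5 CPM in WT hearts, without overlap. Its log2 fold change was 1.32, with a 95% interval from 0.73 to 1.90 (edgeR quasi-likelihood adjusted p = 0.0466). The call was lost with voom, with library sizes not scaled and with the stricter CPM filter, and leaving out 1 heart ended it for HVCN1 null hearts 1 and 3 and each WT heart, with adjusted p values up to 0.149. The size of the log2 fold change stayed between 1.13 and 1.51 over these alternatives. Acta2 was highest in HVCN1 null heart 1, the heart lowest for Hand2 and Srf in that genotype. The summed smooth muscle and pericyte markers, which include Acta2, were highest in the same heart (1943 CPM), and their part in the result was not tested. The lowest unadjusted p values after it, of genes chosen after their values were seen, were those of Synpo2, which codes for a Z disc protein, at 117 ± 10.04 against 163 ± 25.7 CPM (edgeR quasi-likelihood adjusted p = 0.127), and of Smtn, smoothelin, at 284 ± 28.2 against 227 ± 19.8 CPM (adjusted p = 0.260). DESeq2 called both, and Synpo2 was also called by the exact and likelihood ratio tests. Of all 14796 tested genes DESeq2 called 466, the exact test 367 and the likelihood ratio test 376, against 169 in the main test. Of the 12 genes 10 had a positive and 2 a negative log2 fold change, with a median of 0.18. Over all tested genes 7002 were positive and 7794 negative. The smooth muscle genes Myh11, Cnn1 and Tagln, also singled out after the values were seen, had log2 fold changes of 0.30, 0.22 and 0.08 and were not DEGs.

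The 7 immediate early genes known as SRF targets gave no DEG by any of the tools and none at an unadjusted edgeR p under 0.05. Their log2 fold changes lay between -0.33 (Egr1, a zinc finger factor) and 0.22 (Ier2 and Fosb). Egr1 had 32.8 ± 13.1 CPM in HVCN1 null and 41.3 ± 14.0 CPM in WT hearts (n = 4 and 4, SD), Ier2 19.2 ± 3.92 and 16.4 ± 3.63 CPM, and Fosb 2.28 ± 0.600 and 1.97 ± 0.474 CPM.

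**Figure D2:**
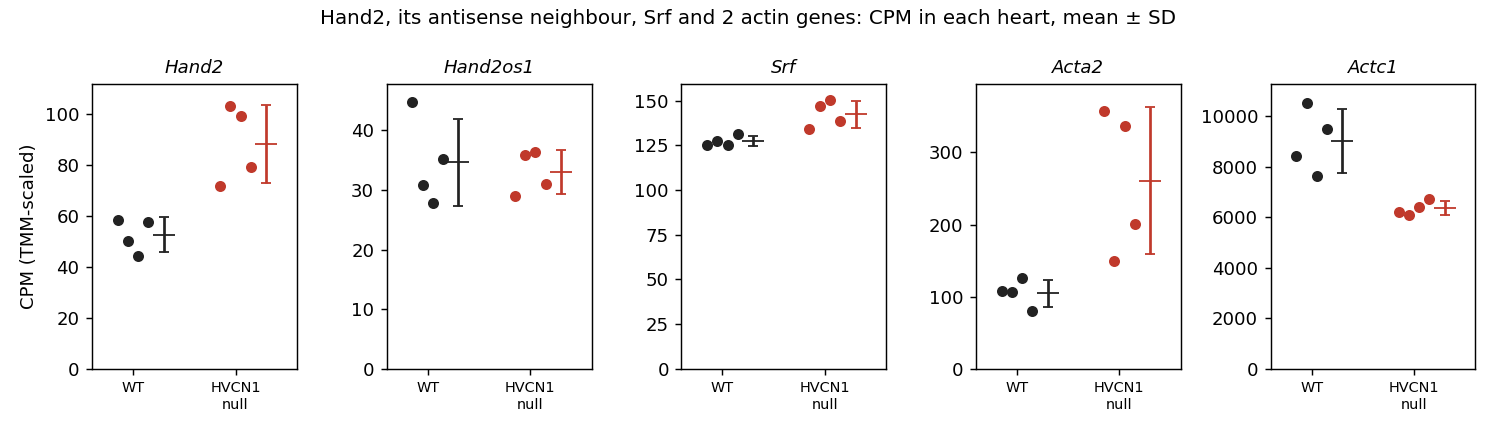
CPM (vertical axes, starting at 0) of Hand2, Hand2os1, Srf and the actin genes Acta2 and Actc1 in the 4 WT hearts (black) and 4 HVCN1 null hearts (red), with group mean ± SD. Hand2, Srf and Acta2 are higher in every HVCN1 null heart than in any WT heart, Actc1 is lower in every one (6078 to 6727 against 7640 to 10540 CPM), and Hand2os1 overlaps between the groups.

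Gata4 (ENSMUSG00000021944, chromosome 14, 63198922 to 63271692, minus strand), the main GATA factor of adult myocytes, had 124, 133, 124 and 130 CPM in HVCN1 null hearts and 116, 143, 128 and 142 CPM in WT hearts. The HVCN1 null hearts all fell inside the WT range. The log2 fold change was -0.05, with a 95% interval from -0.25 to 0.16 (edgeR quasi-likelihood adjusted p = 0.935). Gata6 (ENSMUSG00000005836, chromosome 18, 11052064 to 11085635, plus strand), its relative, had 52.8, 80.8, 61.0 and 58.9 CPM in HVCN1 null hearts and 42.1, 49.2, 57.5 and 52.1 CPM in WT hearts. Only WT heart 7 exceeded the lowest HVCN1 null heart. The log2 fold change of Gata6 was 0.34, with a 95% interval from 0.02 to 0.65, and it did not pass the adjusted test (edgeR quasi-likelihood adjusted p = 0.417, unadjusted p = 0.0389). Without HVCN1 null heart 2, which had the highest value, the log2 fold change of Gata6 was 0.20. Together with Hand2, Gata6 made 2 of the 10 factors that were higher at an unadjusted p under 0.05, where 5.46% of all tested genes were. The log2 ratio of Gata4 to Gata6 was 1.03 ± 0.227 in HVCN1 null and 1.40 ± 0.169 in WT hearts (n = 4 and 4, SD), and the difference of -0.37 came with 1 pair of hearts out of order (two-sided exact permutation p = 0.0571). An antisense gene at the start of Gata6, 1010001N08Rik, shares 93 exon bases with it and had 5.64 ± 0.938 and 5.39 ± 0.556 CPM.

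Nkx2-5 (ENSMUSG00000015579, chromosome 17, 26838664 to 26845009, minus strand), the homeodomain factor of the myocyte and conduction lineages, had 79.8, 95.1, 128 and 103 CPM in HVCN1 null hearts and 89.7, 77.7, 84.6 and 89.8 CPM in WT hearts. HVCN1 null hearts 2 to 4 lay above every WT heart and heart 1 within the WT range. Its log2 fold change was 0.25, with a 95% interval from -0.05 to 0.54 (edgeR quasi-likelihood adjusted p = 0.571). It was 0.12 without heart 3, the highest, and was 0.35 without heart 1, the lone overlapping HVCN1 null heart, and Nkx2-5 was called in none of the alternatives. Heart 3, the highest for Nkx2-5 at 128 CPM, was also the library of fewest counts.

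Among the T-box factors, Tbx5 (ENSMUSG00000018263, chromosome 5, 119832668 to 119885219, plus strand), a regulator of atrial and conduction identity, had 27.7, 69.0, 51.3 and 31.8 CPM in HVCN1 null hearts and 40.1, 28.2, 89.2 and 30.7 CPM in WT hearts. Its coefficient of variation was 42.4% in HVCN1 null and 60.8% in WT hearts, the highest of the 10 factors in each. The 4 hearts with the most Tbx5 (7, 2, 3 and 5) were the 4 with the highest summed atrial markers, in the same order, and the 4 others lay between 27.7 and 31.8 CPM. The log2 fold change was -0.07 with a wide 95% interval, from -0.93 to 0.80 (edgeR quasi-likelihood adjusted p = 0.985). It turned to 0.45 without WT heart 7. With the atrial score as a covariate the log2 fold change was -0.27, and the 95% interval narrowed to -0.65 to 0.11 (edgeR quasi-likelihood adjusted p = 0.612). On chromosome 5, Tbx5 lies 2.32 Mb from Hvcn1, the deleted gene.

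**Figure D3:**
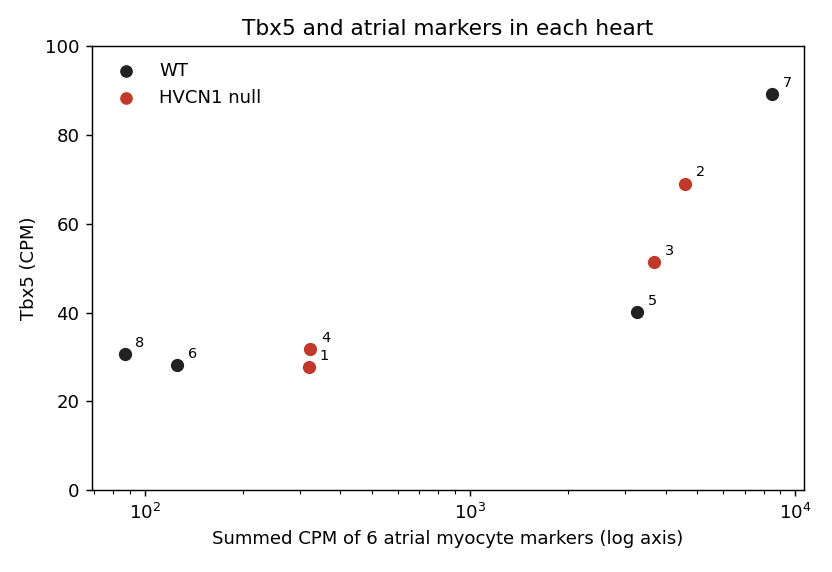
Tbx5 in CPM (vertical axis, from 0) against the summed CPM of 6 atrial myocyte markers (horizontal log axis) for the 4 WT hearts (black) and 4 HVCN1 null hearts (red), each point numbered by heart. Hearts 8, 6, 1 and 4, with 86.8 to 323 CPM of the markers, have 27.7 to 31.8 CPM of Tbx5, and hearts 5, 3, 2 and 7, with 3260 to 8467 CPM, have 40.1 to 89.2 CPM.

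Tbx20 (ENSMUSG00000031965, chromosome 9, 24718138 to 24774303, minus strand), which in adult myocytes both activates and represses genes, had 104, 120, 70.8 and 72.1 CPM in HVCN1 null hearts and 60.0, 79.6, 99.3 and 83.9 CPM in WT hearts. HVCN1 null hearts 1 and 2 exceeded every WT heart, and hearts 3 and 4 lay below all but WT heart 5. For Tbx20 the log2 fold change was 0.18, with a 95% interval from -0.25 to 0.62 (edgeR quasi-likelihood adjusted p = 0.855). With 1 heart left out it ranged from 0.03, without HVCN1 null heart 2, to 0.30, without WT heart 7, and it was 0.07 without WT heart 5. Unlike Tbx5, Tbx20 showed no order along the atrial markers, since heart 1 was high in Tbx20 and low in the markers. The log2 ratio of Tbx5 to Tbx20 was -1.09 ± 0.618 in HVCN1 null and -0.920 ± 0.661 in WT hearts (two-sided exact permutation p = 0.714, n = 4 and 4), and the sign of the difference turned without HVCN1 null heart 1 or WT heart 7.

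The MEF2 factors bind A/T-rich sites of contractile and metabolic genes. Mef2a (ENSMUSG00000030557, chromosome 7, 67231163 to 67372858, minus strand) had 181, 191, 141 and 180 CPM in HVCN1 null hearts and 137, 174, 193 and 174 CPM in WT hearts. Each group had 1 low heart, HVCN1 null heart 3 and WT heart 5, and the rest lay between 174 and 193 CPM. Its log2 fold change was 0.03, with a 95% interval from -0.26 to 0.33 (edgeR quasi-likelihood adjusted p = 0.975). Mef2c (ENSMUSG00000005583, chromosome 13, 83504034 to 83667080, plus strand), the factor of the anterior heart field, had 60.5, 59.4, 49.8 and 51.4 CPM in HVCN1 null hearts and 45.9, 58.7, 60.2 and 56.6 CPM in WT hearts. The means, 55.3 ± 5.45 and 55.3 ± 6.44 CPM (SD, n = 4 each), were the closest of the 10 factors. The 95% interval of its log2 fold change ran from -0.24 to 0.24 (edgeR quasi-likelihood adjusted p = 0.999). The log2 ratio of Mef2a to Mef2c was 1.64 ± 0.134 in HVCN1 null and 1.61 ± 0.0524 in WT hearts, so the balance of the pair varied more among hearts than between genotypes (exact two-sided permutation p = 0.629, n = 4 and 4). Lysmd4, which lies on the opposite strand and shares 302 exon bases with Mef2a, had 16.6 ± 1.86 and 16.7 ± 3.48 CPM.

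**Figure D4:**
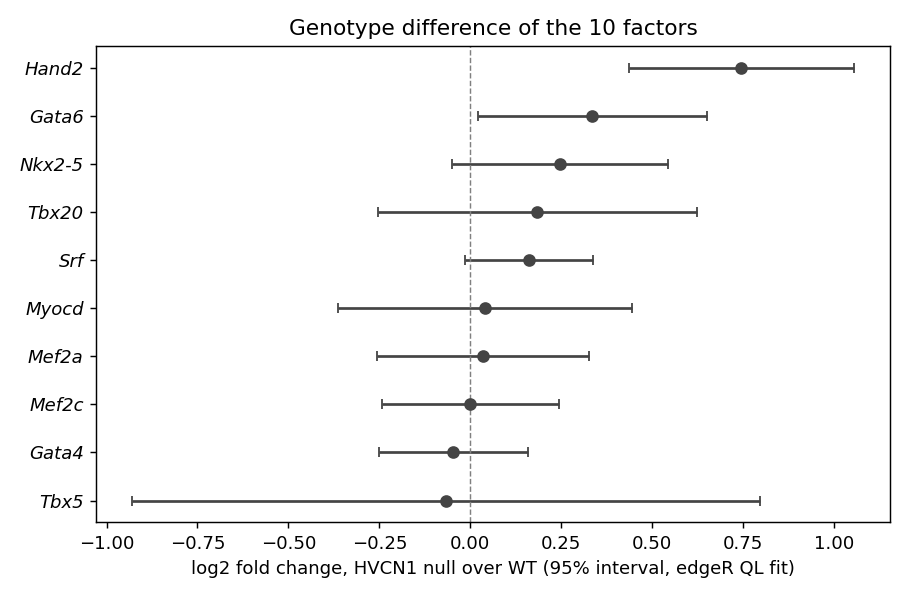
Log2 fold change, HVCN1 null over WT, of each factor (points) with its 95% interval from the edgeR quasi-likelihood fit (bars), and a dashed line at no difference. The interval of Hand2 runs from 0.44 to 1.06, that of Tbx5 is the widest (-0.93 to 0.80), and that of Srf, the narrowest, runs from -0.02 to 0.34.

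To compare levels between the factors, CPM was divided by the exon length of each gene in kb (CPM per kb). On this scale the order from high to low was Nkx2-5, Srf, Gata4, Hand2, Mef2a, Tbx5, Gata6, Myocd, Tbx20 and Mef2c. Nkx2-5 had 59.0 ± 11.6 CPM per kb in HVCN1 null and 49.7 ± 3.31 in WT hearts (SD, n = 4 each), and Mef2c 3.52 ± 0.347 and 3.52 ± 0.410. Hand2 had 37.6 ± 6.52 in HVCN1 null and 22.4 ± 2.85 in WT hearts, and so passed Gata4, at 32.7 ± 1.14 and 33.8 ± 3.26, in HVCN1 null hearts 2, 3 and 4 only. A gap larger than the spread, in the same order in all 8 hearts, was found between Nkx2-5 and Srf (mean log2 difference 0.21 ± 0.16), Srf and Gata4 (0.49 ± 0.15), Hand2 and Mef2a (1.31 ± 0.51) and Tbx20 and Mef2c (1.002 ± 0.211). Gata6 was above Myocd in 7 of 8 hearts (0.25 ± 0.25). The neighbours Mef2a and Tbx5, Tbx5 and Gata6, and Myocd and Tbx20 did not differ beyond their spread, as each pair kept its order in 4 or 5 of 8 hearts. This order depends on the length used. With the median length of coding transcripts, in place of all annotated exons, Srf was first and Myocd last, and 4 of the 9 neighbour pairs kept their order.

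**Figure D5:**
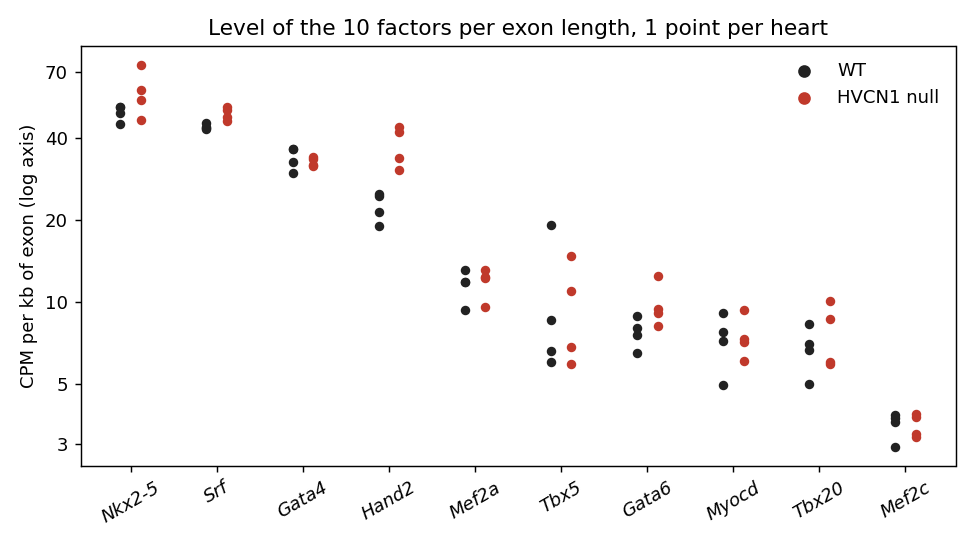
Level of each factor per exon length (CPM per kb, vertical log axis), with 1 point per heart for WT (black) and HVCN1 null (red), in order of the mean over 8 hearts. Nkx2-5 lies highest (45.2 to 74.2 CPM per kb), Mef2c lowest (2.92 to 3.85), and the red points of Hand2 (30.5 to 43.9) lie above its black points (18.9 to 24.9).

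Other heart transcription factors were followed as a list of 26, of which 22 were tested. None was a DEG by any test run (quasi-likelihood, exact and likelihood ratio tests of edgeR, DESeq2 and voom), and 4 had an unadjusted edgeR p under 0.05, 3 of them higher and 1 lower, against 5.46% and 5.52% of all tested genes. The lowest p values were those of Meis1, a homeodomain partner of other factors, at 28.2 ± 2.40 CPM in HVCN1 null and 22.8 ± 2.58 CPM in WT hearts (edgeR quasi-likelihood adjusted p = 0.248), of Hey1, a NOTCH target, at 12.7 ± 2.28 and 9.33 ± 1.21 CPM (adjusted p = 0.252), and of Tbx3, the T-box repressor of the conduction system, at 22.6 ± 5.71 and 17.6 ± 0.420 CPM (adjusted p = 0.412). The list was divided into 12 higher and 10 lower, with a median log2 fold change of 0.04. Hand1, the closest relative of Hand2, had 1 count over all 8 hearts, and Isl1, a factor of cardiac progenitors and the sinus node, also 1.

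Partners of the factors were 24 coactivators, repressors and kinases, all tested. No partner was a DEG by any of these tools, and none had an unadjusted edgeR p under 0.05. The 3 of lowest p were Fhl2, a LIM-domain partner of SRF (900.5 ± 128 CPM in HVCN1 null and 1164 ± 247 CPM in WT hearts, edgeR quasi-likelihood adjusted p = 0.465), Hdac4, a repressor of MEF2 (27.6 ± 1.11 and 24.5 ± 1.88 CPM, adjusted p = 0.473), and Zfpm1, a partner of GATA factors (41.7 ± 3.89 and 36.9 ± 1.99 CPM, adjusted p = 0.531). The log2 fold changes lay between -0.37 and 0.19, with a median of 0.06.

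Of 25 heart muscle genes known as targets of the factors, all tested, none was a DEG by edgeR's quasi-likelihood test. An unadjusted edgeR p under 0.05 was found for 2, 1 higher and 1 lower, against 5.46% and 5.52% of all tested genes. DESeq2 called 1 of the 25, Actc1, and 466 of all 14796 tested genes. Actc1, the cardiac actin and main actin of the sarcomere, had 6225, 6078, 6400 and 6727 CPM in HVCN1 null hearts and 8449, 10540, 7640 and 9501 CPM in WT hearts. All HVCN1 null hearts lay below all WT hearts, as for 3.45% of tested genes. Its log2 fold change was -0.51 (standard error 0.12, edgeR quasi-likelihood adjusted p = 0.105, DESeq2 adjusted p = 5.85e-04). Gja1, connexin 43, lay higher in every HVCN1 null heart (464 ± 33.4 against 387 ± 38.1 CPM, edgeR quasi-likelihood adjusted p = 0.405), and Cacna1c, the L-type calcium channel, had 346 ± 30.9 against 285 ± 55.1 CPM (adjusted p = 0.540). Of the 25 log2 fold changes 20 were negative and 5 positive, with a median of -0.08, where 7794 of all 14796 tested genes were negative. Nppa and Myl7 are in this list and also among the markers of the atrial score. With the atrial score as a covariate 12 were negative and 13 positive and the median was 0.00425, and without scaling of library sizes, where Actc1 was a DEG, 15 were negative and 10 positive.

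For each factor, the genes with the most similar pattern were sought by Pearson's r of log2 CPM over the 8 hearts among 8298 genes with a mean of at least 10 CPM. With so many genes and 8 hearts high values are found for any gene, and they are given as a description only. Closest to Hand2 were Fam189a2 (r = 0.963) and Ift81 (r = 0.955), with log2 fold changes of 0.32 and 1.06. As r was taken over both genotypes together, the part of a shared genotype difference in it was not tested. Srf was closest to Plekhf1 (r = 0.960) and Carm1 (r = 0.954), Tbx5 to Slit3 (r = 0.985) and Spock2 (r = 0.969), and Mef2c to Apc (r = 0.993) and Zbtb37 (r = 0.987). Gata4 went with Cul4a and Yy1, Gata6 with Dennd1a and Spsb1, Nkx2-5 with Gga1 and Wbp2, Tbx20 with Nisch and Khnyn, Mef2a with Rock1 and Lamp2, and Myocd with Camk2g and Svil, at r between 0.946 and 0.981. None of these 20 genes is itself 1 of the 10 factors. Over the 45 pairs of factors, r ran from -0.568 (Nkx2-5 and Mef2c) to 0.951 (Hand2 and Srf). The r of Hand2 and Srf lay just below that of Ift81 for Hand2 and of Carm1 for Srf. The part of the genotype difference in it was not tested.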

How the data were processed

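RNA was taken from 8 mouse hearts (4 HVCN1 null, 4 WT), 1 poly(A)-selected library each. The deposited values are raw read counts per Ensembl gene, made by the authors with STAR and featureCounts. The submitters' processing notes name mm10 and GRCm38, whereas the study's methods name hg38, a human build. The gene IDs are mouse, and GRCm38 was used here. Tool versions are not given in the sources used here. Groups were taken from the sample titles. Each group held the hearts of 4 mice, and p-values set the difference between genotypes against the spread between hearts. Of 39056 gene IDs 38872 (99.5%) were matched to GENCODE names in GRCm38. Depth was 25851255 to 38874640 counts per heart.

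Counts were filtered with filterByExpr, scaled by TMM and tested with edgeR 4.0.16 (quasi-likelihood, Benjamini-Hochberg adjustment over 14796 genes, threshold 0.05). CPM differences were tested with two-sided exact permutation over 70 assignments. Log2 CPM for ratios and similarity used a prior count of 2. Levels between genes were divided by union exon length. DESeq2 1.42.0, limma 3.58.1 (voom), other scalings and filters, an atrial score (mean log2 CPM of atrial markers) as a covariate and leaving out each heart were alternatives. The fit was tested on simulated data. BLAST+ 2.17.0 found no near-identical gene copy for any of the 10 factors. Promoters came from RefSeq (GRCm38.p6). The factors and gene lists were chosen with earlier results of these data known. The naming rule took all factors, from each list of factors, partners and targets the called genes or, where none, the 3 of lowest p, from marker lists the called genes, and for each factor the 2 most similar genes. Synpo2, Smtn, Myh11, Cnn1, Tagln, Myl7, Bmp10, Hand1 and Isl1 were named outside it, after their values were seen. Hand2os1, 1010001N08Rik and Lysmd4 were named for overlapping a factor.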

Additional observations from a re-analysis of the deposited data

How the results depend on the processing

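The number of DEGs over all tested genes, 169, was 367 with edgeR's exact test, 376 with its likelihood ratio test, 466 with DESeq2 and 56 at an adjusted p under 0.01. With 1 heart left out it was 71 to 152, lowest without WT heart 6. At 0.01 Hand2 was not called, which left 0 of the 10 factors, and with 1 heart left out 0 or 1 were called, while the log2 fold change of Hand2 was 0.66 to 0.83. The order of levels kept 4 of 9 neighbour pairs with the median coding transcript length. Of the other factors none was called in any alternative, and the direction turned in at least 1 alternative for Tbx5, Mef2a, Mef2c and Myocd. The log2 fold change of Mef2c became 0.0108 with RLE scaling, 0.0377 without scaling, 0.00667 without a filter, 0.0111 with DESeq2, 6.755e-04 with voom and 0.00535 with the atrial score, and that of Tbx5 became 9.474e-04 with voom. On the log2 CPM scale the differences were 0.00299 for Tbx5 and 0.00143 for Mef2c, and unscaled CPM of Mef2c differed by 1.44. With 1 heart left out the log2 fold change was -0.35 to 0.45 for Tbx5, -0.0476 to 0.122 for Mef2a, -0.0730 to 0.0465 for Mef2c, -0.10 to 0.18 for Myocd and -0.158 to 0.0887 for Hand2os1. The differences in mean CPM were then -10.1 to 11.98 for Tbx5, -6.78 to 14.97 for Mef2a, -3.18 to 1.78 for Mef2c and -3.63 to 5.27 for Myocd, and the differences in log2 ratio were -0.0203 to 0.0832 for Mef2a to Mef2c and -0.37 to 0.11 for Tbx5 to Tbx20. The causes were not tested. No paired analysis was possible because no heart number occurs in both genotypes. Each factor had at least 910 counts in every heart.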
